A study of Mus musculus with 9 samples.

Results

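The genes followed here in mouse spleen are 9 that mark monocytes and macrophages: the growth factor receptor Csf1r and its ligand Csf1, the adhesion receptor Adgre1 (the F4/80 antigen, Emr1 on older arrays), the receptor tyrosine kinase Mertk, the lysozyme Lyz2, the lysosomal protein Cd68, the integrin chain Itgam (CD11b), the surface protein Ly6c2 and the signalling adaptor Tyrobp (DAP12). The members were all probes outside the array's controls whose accession maps to these 9 symbols. Probes were found for 7 of the 9 genes, 14 probes of 39429 on the array, and Cd68 and Ly6c2 were not analysed here. All 14 probes were well above background on all 9 arrays, so that the filter on dim probes removed no member.

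The spleen RNA came from female BALB/c mice in 3 groups of 3 samples, and all 3 groups share strain, sex and tissue. The first group had a low dietary selenium supply and no Graves' disease (low Se non-GD), the second a low supply and the disease (low Se GD), and the third a normal supply and the disease (normal Se GD). In this autoimmune disease antibodies drive the thyroid to make too much hormone. The labels leave out the age of the mice, the way the disease was induced and the make-up of each diet. No group combined a normal supply with no disease, so whether the disease or the supply acts differently in the presence of the other could not be tested. Nothing in the labels says whether the 3 samples of a group are separate animals, so the p-values cover only how these samples vary, and that variation may be technical.

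Macrophages and monocytes depend on signals through CSF1R, which is bound by CSF1 and by IL34 and keeps these cells alive and dividing. In the spleen they clear old red cells, take up dying cells and debris, and patrol for microbes. F4/80 is the classic surface mark of the red pulp macrophage, MERTK recognises dying cells through bridging proteins, and CD11b is shared by monocytes, neutrophils, some dendritic cells and natural killer cells. DAP12 carries the signal of many activating receptors on myeloid and natural killer cells.

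Values below are log2 signals minus the array's 75th percentile, so that 0 is the level at that percentile, and a difference of 1 is 2-fold. A gene's value is that of its brightest probe. A gene was called when its p-value from limma, adjusted by Benjamini-Hochberg over all 26325 genes tested, was under 0.05. In a whole spleen, fewer cells of a type and less RNA per cell cannot be told apart.

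The arrays differed in ways that ran with the groups. The share of spots well above background was 58.4% on normal Se GD replicate 3 and ran from 72.6% to 82.6% on the other 8 arrays. The E1A control probes stood at log2 4.72 to 5.85 in low Se non-GD and at 0.87 to 2.51 on the 6 GD arrays, and the probe for 28S ribosomal RNA (Rn28s1) stood at 0.45 to 0.83 against 3.0 to 5.99. Arrays with the same scan date in their headers were taken to share a slide, and no slide number was read. By that rule, all of low Se non-GD shared slide 1 with replicate 1 of low Se GD. Replicates 2 and 3 of low Se GD shared slide 2 with replicates 1 and 2 of normal Se GD, whose replicate 3 was alone on slide 3. With the slide as a block, a disease difference is therefore low Se GD replicate 1 against the 3 low Se non-GD arrays. A supply difference is then that between the arrays on slide 2. The combined difference adds up these 2, so it too hangs on low Se GD replicate 1. Normal Se GD replicate 3 adds nothing to any of them. Calls kept or lost with the slide as a block carry that limit. Of 18538 genes above background on all arrays, 78.3% read in low Se non-GD replicate 3 at a value inside the range of its group's other arrays, and 69.0% did so in low Se GD replicate 2. Results are therefore also given without these 2 in-between arrays. The part of the control RNA and ribosomal RNA levels in the differences below was not tested.

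The disease comparison set low Se GD beside low Se non-GD. Csf1r, Adgre1 and Itgam differed in it. Csf1r was 1.62-fold and Adgre1 2.59-fold higher in the diseased spleens, and Itgam was 2.44-fold lower. Csf1, Mertk, Lyz2 and Tyrobp did not pass the test in that comparison. In all, 3 of 7 member genes were called, 2 higher and 1 lower, where 24.9% of all genes were called, 12.8% higher and 12.2% lower. The median log2 difference of the 7 genes was 0.37, and that of all genes was 0.08.

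The supply comparison set normal Se GD beside low Se GD. In it 0 of 7 member genes were called by limma, where 1.27% of all genes were called. At an unadjusted p under 0.05 the test found 2 of the 7, Lyz2 and Tyrobp, where 19.4% of all genes were found. The lowest adjusted p of the 7 was 0.15. A block for slide gave 1 gene, Itgam, and array weights gave 4, where 6.51% and 41.1% of all genes were called. The median log2 difference of the 7 genes was 0.37 beside 0.00 for all genes.

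The combined comparison set normal Se GD beside low Se non-GD, which differ in both disease and supply. Csf1r, Adgre1, Mertk and Tyrobp were higher, by 1.77-fold, 2.81-fold, 1.70-fold and 1.63-fold. These are 4 of 7 member genes, where 32.3% of all genes were called, 18.9% higher and 13.4% lower. The median log2 difference of the 7 was 0.71, beside 0.06 for all genes. This comparison shares its low Se non-GD arrays with the first and its normal Se GD arrays with the second, so the 3 sets of values are not independent of each other.

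**Figure D1:**
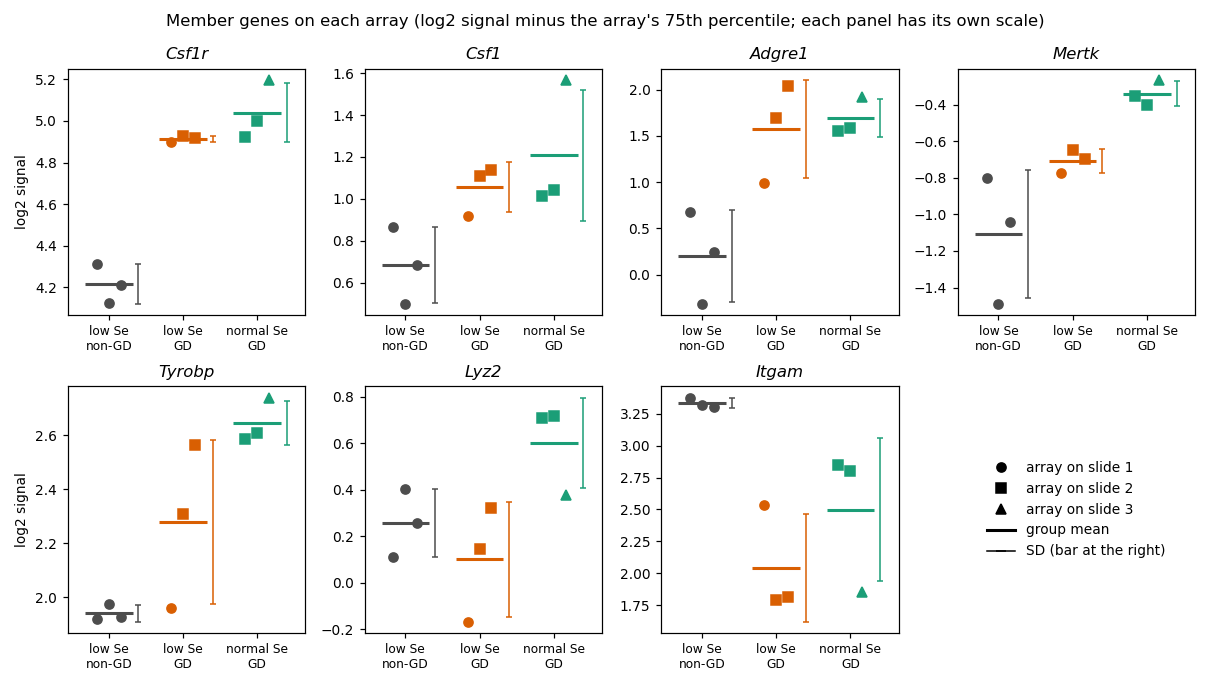
Log2 signal relative to each array's 75th percentile (vertical axis, a scale of its own in each panel) of the 7 member genes in each of the 9 samples, by group; horizontal lines are group means, bars at the right are SD, and the symbol gives the slide. Csf1r and Adgre1 lie higher on all 6 GD arrays than on the 3 low Se non-GD arrays, and Itgam lies lower on all 6.

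**Figure D2:**
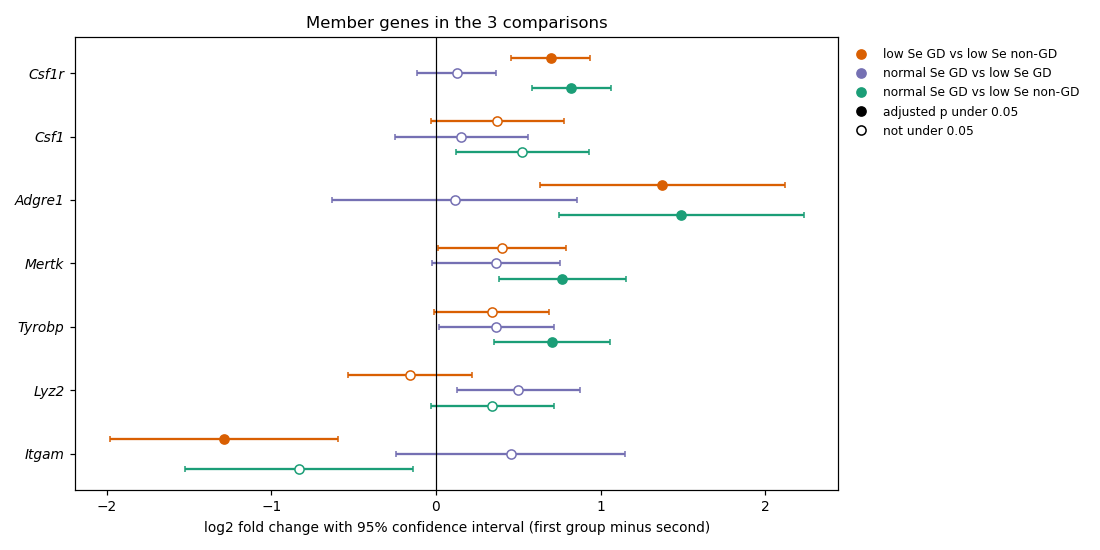
Log2 fold change (horizontal axis) with its 95% confidence interval for each member gene in the 3 comparisons; filled points have an adjusted p under 0.05. Csf1r and Adgre1 are called higher in both comparisons with low Se non-GD, Mertk and Tyrobp only reach the threshold in the combined comparison, and no point of the supply comparison is filled.

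The receptor Csf1r stood at 4.32, 4.13 and 4.21 in low Se non-GD, at 4.90, 4.93 and 4.92 in low Se GD, and at 4.92, 5.0 and 5.20 in normal Se GD. The low Se non-GD values lay below all others without overlap, while the 2 GD groups overlapped. The difference was 0.70 (SE 0.10, adjusted p = 0.00334) for low Se GD and 0.82 (SE 0.10, adjusted p = 0.00146) for normal Se GD, both against low Se non-GD. Between the GD groups it was 0.13, with a 95% confidence interval of -0.11 to 0.36. With the slide as a block the first 2 differences were 0.68 and 0.72, and both were still called (adjusted p = 0.00953 and 0.0217). Both then rest on low Se GD replicate 1, the only GD array on slide 1. Without the 2 in-between arrays the first was 0.69 and missed the threshold (adjusted p = 0.0935), and the second was 0.82 and passed it (adjusted p = 0.0334). Within slide 1, where the 3 low Se non-GD arrays meet low Se GD replicate 1 alone, the first difference was the same 0.68.

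Csf1r had 2 other probes, and they did not move alike. Probe A_52_P602091 read -0.43, -0.99 and -0.75, then -0.33, -0.24 and -0.23, then 0.30, 0.20 and 0.41 in the same order of groups. Its 3 groups did not overlap, and it was called in the combined comparison (1.03, adjusted p over all 31868 probes = 0.00199), with values of 0.46 (adjusted p = 0.0565) and 0.57 (adjusted p = 0.0803) in the other 2 comparisons. With the slide as a block the called difference was 0.88 and missed the threshold (adjusted p = 0.0771). It was still called with the slide as a random block (0.94, adjusted p = 0.0193) and without the 2 in-between arrays (1.02, adjusted p = 0.034). Probe A_55_P2025073 read 0.00, -0.08 and -0.06, then 0.35, 0.05 and 0.06, then 0.14, 0.17 and -0.34, and was not called in any comparison. Its correlation with the brightest probe over the 9 arrays was 0.12, against 0.88 for A_52_P602091. With the slide as a block A_55_P2025073 too was called higher in both comparisons with low Se non-GD, by 0.39 and 0.50. As a random block, slide gave 0.30 in both and no call (adjusted p = 0.135 and 0.224).

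The ligand Csf1 stood at 0.86, 0.50 and 0.69 in low Se non-GD, at 0.92, 1.11 and 1.14 in low Se GD, and at 1.01, 1.04 and 1.57 in normal Se GD, the mean of 10 spots on each array. Both GD groups lay above the low Se non-GD group, and they overlapped each other. Neither difference was called: it was 0.37 (SE 0.17, adjusted p = 0.163) for low Se GD and 0.53 (SE 0.17, adjusted p = 0.0526) for normal Se GD. The first was called without normal Se GD replicate 3 (adjusted p = 0.036), which is in neither group but adds to the shared spread. The second lay just past the threshold and was called under quantile normalization, among other settings (adjusted p = 0.0492), and fell to 0.14 with the slide as a block. Of the 2 other probes, A_55_P2017914 was called higher in the combined comparison (0.37, adjusted p = 0.0242) and A_55_P2169669 was not (0.40, adjusted p = 0.0699). Probe A_55_P2017914 read -1.40, -1.66 and -1.58, then -1.34, -1.21 and -1.31, then -1.17, -1.24 and -1.11. Probe A_55_P2169669 read -1.04, -1.46 and -1.32, then -1.11, -1.02 and -1.02, then -0.996, -0.99 and -0.62. Both followed the brightest probe, with correlations of 0.90 and 0.97 over 9 arrays. The call on A_55_P2017914 was lost with the slide as a block (0.26, adjusted p = 0.291) and without the 2 in-between arrays (0.36, adjusted p = 0.166).

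Adgre1, the F4/80 antigen, differed by over 2-fold in both comparisons with low Se non-GD. It stood at 0.67, -0.31 and 0.24 in low Se non-GD, at 0.99, 1.69 and 2.04 in low Se GD, and at 1.56, 1.59 and 1.93 in normal Se GD. The low Se non-GD values were below all 6 others, with 0.67 and 0.99 the nearest pair, both on slide 1. The difference was 1.37 (SE 0.32, adjusted p = 0.0181) for low Se GD and 1.49 (SE 0.32, adjusted p = 0.0104) for normal Se GD, and 0.12 between the GD groups, with a 95% confidence interval of -0.63 to 0.86. With slide in the model, the first 2 fell to 0.79 (adjusted p = 0.167) and 0.50 (adjusted p = 0.491). Without the 2 in-between arrays they were 1.34 (adjusted p = 0.17) and 1.51 (adjusted p = 0.069). The first was also lost without any one of low Se non-GD replicates 2 and 3 and low Se GD replicates 2 and 3, at adjusted p = 0.0561, 0.0581, 0.0686 and 0.0595.

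The other Adgre1 probe, A_55_P2018934, followed the brightest one with a correlation of 0.97. It read -0.85, -1.89 and -1.36, then -1.04, -0.37 and 0.00, then -0.21, -0.30 and 0.17. It was called in the combined comparison (1.26, adjusted p = 0.0219) and not in the disease comparison (0.90, adjusted p = 0.0855), where low Se GD replicate 1 lay among the low Se non-GD values. Once slide was blocked, the called difference was 0.26 (adjusted p = 0.742), and without the 2 in-between arrays it was 1.26 (adjusted p = 0.108).

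**Figure D3:**
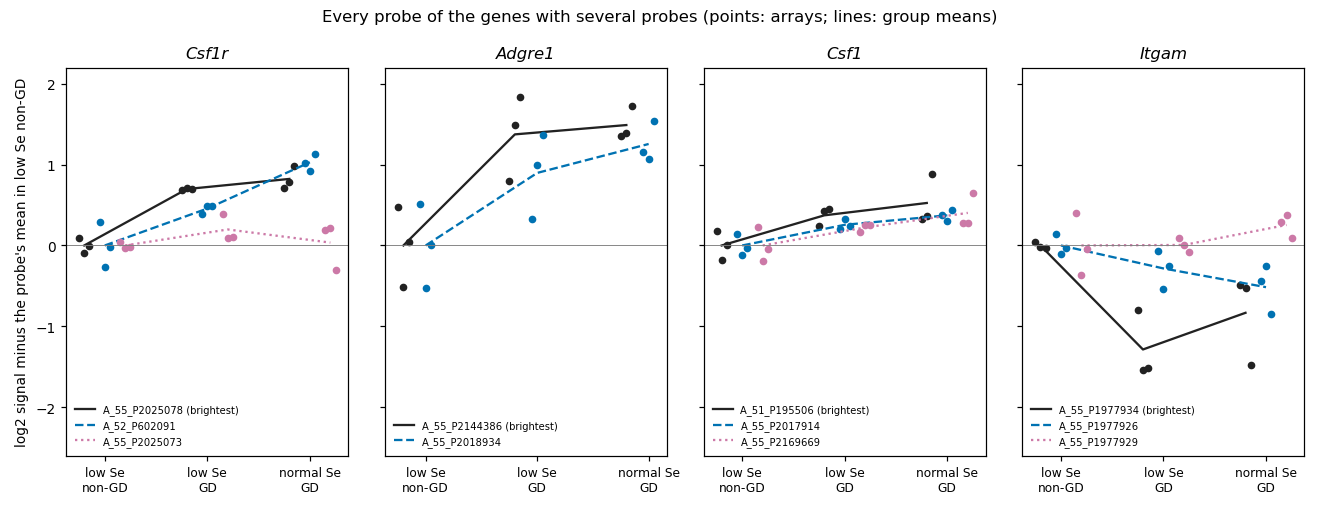
Every probe of the 4 member genes with several probes, as log2 signal minus that probe's own mean in low Se non-GD (vertical axis), by group; points are arrays and lines join group means. The probes of Adgre1 and of Csf1 run alike, while 1 Csf1r probe and 1 Itgam probe stay near 0 where the brightest probe of the gene moves.

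Mertk, which binds dying cells through the bridging proteins GAS6 and PROS1, stood at -0.80, -1.49 and -1.04 in low Se non-GD, at -0.78, -0.65 and -0.70 in low Se GD, and at -0.35, -0.40 and -0.26 in normal Se GD. The 3 groups did not overlap, though -0.80 and -0.78 all but met. Only the combined comparison was called (0.77, SE 0.17, adjusted p = 0.0108). The difference was 0.40 (adjusted p = 0.121) for the disease under low selenium and 0.37 (adjusted p = 0.28) for the supply within the disease. The called difference was 0.63 with the slide as a block (adjusted p = 0.222) and 0.80 without the 2 in-between arrays (adjusted p = 0.0722). Without low Se non-GD replicate 1, the first comparison gave 0.56 and was called (adjusted p = 0.0391).

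Tyrobp, the adaptor DAP12, stood at 1.92, 1.97 and 1.93 in low Se non-GD, at 1.96, 2.31 and 2.57 in low Se GD, and at 2.59, 2.61 and 2.74 in normal Se GD. The normal Se GD values lay above all others. Low Se GD replicate 1, the array on the slide of the non-diseased group, lay among the low Se non-GD values. The difference was called in the combined comparison (0.71, SE 0.15, adjusted p = 0.0101) and was 0.34 (adjusted p = 0.145) and 0.37 (adjusted p = 0.238) in the other 2. Under a block for slide, the called difference fell to 0.18 (adjusted p = 0.424), and without the 2 in-between arrays it was 0.70 (adjusted p = 0.084). Without low Se GD replicate 1 the first comparison gave 0.50 and was called (adjusted p = 0.0251).

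Lyz2, the lysozyme of macrophages and granulocytes, stood at 0.11, 0.40 and 0.26 in low Se non-GD, at -0.17, 0.15 and 0.32 in low Se GD, and at 0.71, 0.72 and 0.38 in normal Se GD. Normal Se GD lay above low Se GD without overlap and overlapped low Se non-GD. No difference was called. It was -0.16 (adjusted p = 0.526), 0.50 (adjusted p = 0.15) and 0.34 (adjusted p = 0.146) in the 3 comparisons. The middle one, the effect of supply within the disease, was called with the slide as a random block (0.49, adjusted p = 0.0473).

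Itgam, the chain of the complement receptor CD11b, moved the other way from Csf1r and Adgre1. It stood at 3.38, 3.32 and 3.30 in low Se non-GD, at 2.53, 1.79 and 1.82 in low Se GD, and at 2.84, 2.80 and 1.85 in normal Se GD. The low Se non-GD values lay above all 6 others, and the GD groups overlapped. The difference was -1.29 (SE 0.30, adjusted p = 0.0178) for low Se GD. It was -0.83 (SE 0.30, adjusted p = 0.0682) for normal Se GD, and 0.45 (adjusted p = 0.454) between the GD groups.

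The Itgam differences moved with the slide. On slide 2 the low Se GD arrays read 1.79 and 1.82 and the normal Se GD arrays 2.84 and 2.80, while normal Se GD replicate 3, alone on slide 3, read 1.85. With slide in the model, the disease difference was -0.80 and was called (adjusted p = 0.00353). The supply difference was 1.02 and was called (adjusted p = 0.0278). The GD groups share only slide 2, so this is the same difference as within slide 2 (1.02, adjusted p = 0.0357), not a second finding. With slide as a random block it was 0.81 and was not called (adjusted p = 0.0577). With the slide as a block, the combined difference turned to 0.22 (adjusted p = 0.167). Within slide 1, with low Se GD replicate 1 alone, the first difference was the same -0.80, and without the 2 in-between arrays it was -1.17 (adjusted p = 0.179). It was also lost without any one of low Se non-GD replicates 2 and 3 and low Se GD replicates 2 and 3, at adjusted p = 0.0534, 0.0582, 0.0721 and 0.0634.

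The lower Itgam level rests on the brightest of its 3 probes. Probe A_55_P1977926 gave -0.28 (adjusted p = 0.299), -0.23 (adjusted p = 0.518) and -0.52 (adjusted p = 0.0635) in the 3 comparisons, and probe A_55_P1977929 gave 0.01 (adjusted p = 0.985), 0.25 (adjusted p = 0.506) and 0.25 (adjusted p = 0.346). None of these was called. The first of these probes read -2.72, -2.96 and -2.88, then -2.92, -3.38 and -3.11, then -3.30, -3.10 and -3.70. The second read -2.70, -3.47 and -3.14, then -3.02, -3.09 and -3.18, then -2.81, -2.73 and -3.01, so that its 3 groups overlapped. Their correlations with the brightest probe over 9 arrays were 0.74 and 0.10. With the mean of all 3 probes in place of the brightest, the first difference was -0.52 and was not called (adjusted p = 0.0932).

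Over all 14 probes, 3 were called in the disease comparison, where 25.1% of all probes were called. In the supply comparison, 0 were called by limma, where 2.18% of all were. An unadjusted p under 0.05 was found for 3, where 21% of all probes had one. In the combined comparison, 7 were called, all higher, where 33.5% of all probes were called. The 7 were both Adgre1 probes, 2 of 3 Csf1r probes, 1 of 3 Csf1 probes and the probes of Mertk and Tyrobp.

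**Figure D4:**
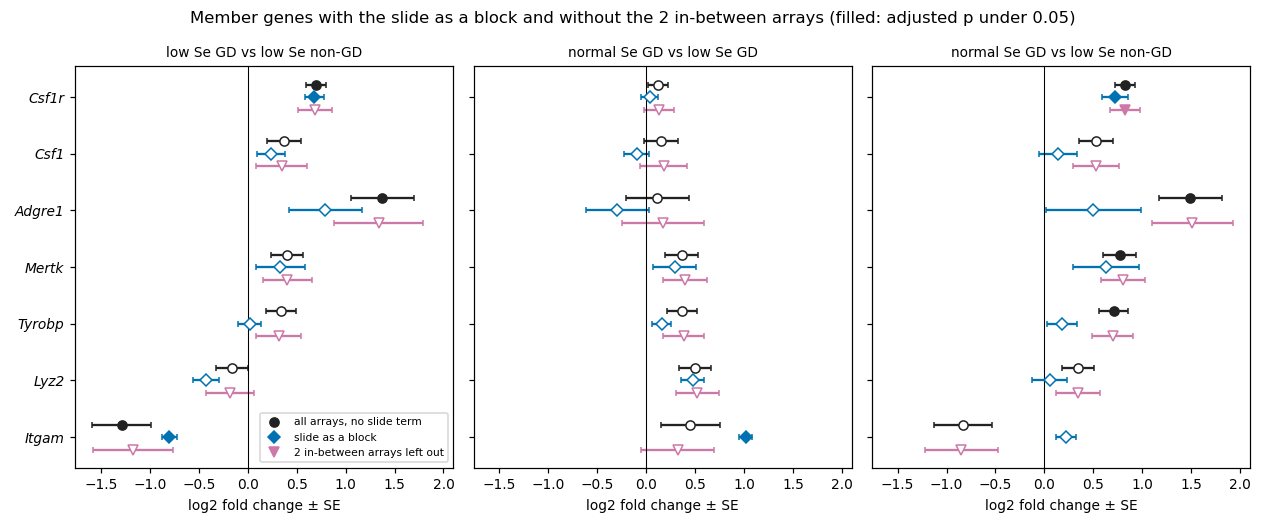
Log2 fold change with its SE (horizontal axis) of the member genes in the 3 comparisons, with all arrays and no slide term, with the slide as a block, and without the 2 in-between arrays; filled points have an adjusted p under 0.05. Csf1r moves little with the slide, Adgre1 and Tyrobp move toward 0, and Itgam in the combined comparison goes from -0.83 to 0.22.

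The start sites of 4 of the 7 genes, Csf1, Mertk, Itgam and Lyz2, are in the RefSeq promoter table used (GRCm38.p6). The 250 bases before the start are shown for Itgam, the member that was lower in low Se GD, and for Mertk, which was higher in normal Se GD. The capitals mark the letters GAGGAA or their reverse complement TTCCTC, a core of sites bound by the myeloid factor PU.1, and both strands were searched.
Itgam (chr7:128062390-128062639, plus strand): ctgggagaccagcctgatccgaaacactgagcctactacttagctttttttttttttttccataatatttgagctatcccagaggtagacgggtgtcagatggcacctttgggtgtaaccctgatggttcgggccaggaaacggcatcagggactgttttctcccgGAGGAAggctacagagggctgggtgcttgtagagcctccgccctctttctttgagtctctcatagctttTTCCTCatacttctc
Mertk (chr2:128698665-128698914, plus strand): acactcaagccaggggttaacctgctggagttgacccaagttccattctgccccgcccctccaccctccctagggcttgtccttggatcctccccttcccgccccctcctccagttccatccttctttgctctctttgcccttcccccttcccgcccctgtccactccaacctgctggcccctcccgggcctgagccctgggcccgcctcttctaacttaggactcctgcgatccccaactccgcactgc
The Itgam window holds the letters on each strand, at positions -84 and -15 from the start, and the windows of Mertk, Csf1 and Lyz2 do not hold them. Of 32851 mouse promoters of the same length, 23.3% hold them. A match of letters is a description of the window and says nothing about binding in these samples.

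The partners of the members, 50 genes in 7 lists, included 48 that could be tested. Csf2 was not well above background on any array, and Spi1, which encodes PU.1, was not tested because a spot marked as an outlier left 1 array without a value. In the disease comparison, 15 of the 48 were called higher and 5 lower, where 12.8% and 12.2% of all genes were. In the supply comparison, 1 was called, where 1.27% of all genes were. In the combined comparison 19 were called higher and 4 lower, where 18.9% and 13.4% of all genes were. The median log2 differences of the 48 were 0.14, 0.19 and 0.33. Without the 2 in-between arrays the first count fell to 1 higher, the lysosomal protease Ctsb, and the third to 10 higher and 2 lower (Axl, Ccr2, Cd14, Ctsb, Il34, Itgax, Lamp2, Ly6c1, Plac8 and Pros1, with Trem2 and Trem3). The calls over all genes fell too, to 1.02% in the first and 11.6% in the third. Once slide was blocked, the counts were 14 higher and 7 lower in the first, 3 higher in the second, and 12 higher and 1 lower in the third. Of all genes, 28.3%, 6.51% and 18.3% were then called.

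Il34, the second ligand of CSF1R, rose in both comparisons with low Se non-GD. It stood at -1.53, -1.62 and -1.68 in low Se non-GD, at -0.998, -1.06 and -1.17 in low Se GD, and at -0.77, -0.74 and -0.43 in normal Se GD, with no overlap between groups. The differences were 0.54 (adjusted p = 0.0148) and 0.96 (adjusted p = 0.0014). Of the 5 growth factor genes tested, Csf2rb2, a receptor chain for IL3, was lower in low Se GD (-0.56, adjusted p = 0.0157), but not with the mean of its probes (0.11). Csf3r, the granulocyte growth factor receptor, differed by 0.04 and 0.10 and was not called. Under a block for slide, it was called higher in both, by 0.44 and 0.79.

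Among 10 transcription factors tested, 2 were higher in the disease comparison and 4 in the combined one, and 1 was lower in the latter. Of all genes, 12.8% and 18.9% were higher in these comparisons, and 13.4% were lower in the latter. Cebpa, a factor of myeloid progenitors, was higher by 0.75 (adjusted p = 0.0166) and 0.95 (adjusted p = 0.00509). Irf8, needed for monocytes and some dendritic cells, differed by -0.05 (adjusted p = 0.706) in the disease comparison, by 0.38 (adjusted p = 0.0697) in the supply comparison and by 0.33 (adjusted p = 0.0194) in the combined one. Blocking on slide moved the call from the combined difference (0.35, adjusted p = 0.0573) to the supply difference (0.36, adjusted p = 0.0402). Runx1, the factor called lower (-0.53, adjusted p = 0.00349), was called higher with the mean of its probes (0.43, adjusted p = 0.0291).

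Of the 4 relatives and ligands of Mertk, Axl and Pros1 were higher in the disease and combined comparisons, and Tyro3 and Gas6 were not called. In these comparisons 12.8% and 18.9% of all genes were higher. The receptor Axl stood at 0.65, 0.04 and 0.39, then at 1.05, 1.44 and 1.53, then at 1.77, 1.80 and 2.01, so that the 3 groups did not overlap. It was higher by 1.98-fold (adjusted p = 0.00848) in low Se GD and by 2.83-fold (adjusted p = 0.00145) in normal Se GD. Both Axl calls were lost in a slide-blocked fit (0.69 and 0.99, adjusted p = 0.0689 and 0.0695). The bridging protein Pros1 was higher by 0.56 (adjusted p = 0.0383) and 1.16 (adjusted p = 0.00195). Its first call held in 12 of 24 alternatives and was lost in the slide-blocked fit (0.50, adjusted p = 0.0914). The other bridging protein, Gas6, differed by 0.12 (adjusted p = 0.564) and 0.14 (adjusted p = 0.447).

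The list of Tyrobp partners holds receptors that signal through DAP12, the kinase Syk and a second adaptor. Of its 7 genes, 0 were called higher by limma in either comparison with low Se non-GD, while 2 were lower in the first and 3 in the second. Of all genes, 12.8% and 18.9% were higher in these comparisons, and 12.2% and 13.4% lower. Trem2 stood at -2.55, -2.35 and -2.48, then at -3.27, -3.25 and -3.25, then at -3.63, -3.72 and -4.09, and it was well above background on 2 of 3 normal Se GD arrays. It was lower by 1.74-fold (adjusted p = 0.00484) and 2.55-fold (adjusted p = 0.00065). Trem3 was lower by 8.95-fold (adjusted p = 0.00143) and 8.70-fold (adjusted p = 0.00108), and the second call was lost in a slide-blocked fit (-2.70, adjusted p = 0.0566). Clec5a was lower in normal Se GD by 14.9-fold (adjusted p = 0.0155), where replicate 3 read -2.08 and the other arrays 1.87 and 1.27. Without replicate 3 its log2 difference went from -3.90 to -2.68 (adjusted p = 0.00287), and in a slide-blocked fit it was -2.0 and not called (adjusted p = 0.082). Its disease difference of -2.81 (adjusted p = 0.0627) was called without that array (adjusted p = 0.00168) and in the slide-blocked fit (-2.36, adjusted p = 0.022). Hcst, the adaptor DAP10, was not called (0.06 and 0.33, adjusted p = 0.851 and 0.211).

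Among the 6 partners of the integrin chain, the beta chain Itgb2 that pairs with CD11b was lower in low Se GD (-0.43, adjusted p = 0.0389), but not in normal Se GD (-0.09, adjusted p = 0.621). Itgax (CD11c), found on dendritic cells and some macrophages, was called in all 3 comparisons. It stood at 0.17, 0.23 and 0.17, then at 0.51, 0.64 and 0.75, then at 1.22, 1.26 and 1.43, with no overlap. The differences were 0.44 (adjusted p = 0.0174) for the disease, 0.67 (adjusted p = 0.0427) for the supply, and 1.11 (adjusted p = 0.000525) for the combined comparison. The call on supply was kept under a block for slide (0.55, adjusted p = 0.0312). It held in 10 of 24 alternatives and was lost, among others, without the 2 in-between arrays (0.67, adjusted p = 0.512). Itgad (CD11d), which marks red pulp macrophages, was higher in low Se GD by 1.20 (adjusted p = 0.0285). That call held in 16 of 24 alternatives and was lost in the slide-blocked fit (1.28, adjusted p = 0.0764), and the combined difference was 0.96 (adjusted p = 0.0511).

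Of 7 lysosomal genes and lysozymes, 4 were higher in the disease comparison and 3 in the combined one, and 0 were called lower by limma. Of all genes, 12.8% and 18.9% were higher in these comparisons, and 12.2% and 13.4% lower. The protease Ctsb was higher by 1.0 (adjusted p = 0.000516) and 0.96 (adjusted p = 0.000478), and the membrane protein Lamp2 by 1.14 (adjusted p = 0.00165) and 1.27 (adjusted p = 0.000819). Lyz1, the near copy of Lyz2, differed by -0.26 (adjusted p = 0.654) and -0.42 (adjusted p = 0.422). Its probe was far brighter than the only Lyz2 probe. The group means in low Se non-GD, low Se GD and normal Se GD were 6.67, 6.41 and 6.25 for Lyz1, and 0.26, 0.10 and 0.60 for Lyz2. Lyz1 and Lyz2 share much of their sequence, and so do Ly6c1 and Ly6c2, so that a probe may read both of a pair.

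Of 9 monocyte surface genes, 4 were higher and 1 lower in the disease comparison, and 6 were higher in the combined one. Of all genes, 12.8% were higher and 12.2% lower in the first, and 18.9% were higher in the second. Ly6c1 was higher by 1.20 (adjusted p = 0.0173) and 1.71 (adjusted p = 0.00335). The chemokine receptor Ccr2, which brings monocytes out of the marrow, stood at -1.16, -1.02 and -1.10, then at -0.71, -0.48 and -0.33, then at -0.19, -0.17 and -0.27, and was higher by 0.58 (adjusted p = 0.00947) and 0.88 (adjusted p = 0.00162). Cd14, the lipopolysaccharide co-receptor, was higher by 1.01 (adjusted p = 0.000815) and 1.08 (adjusted p = 0.000485). Plac8 was higher by 0.87 (adjusted p = 0.0022) and 1.45 (adjusted p = 0.000348), but its first difference was -0.31 with the mean of its probes. Mpeg1, among the 6, was higher by 0.57 (adjusted p = 0.0156) by its brightest probe and lower with the mean of its probes (-1.05, adjusted p = 0.0041). Cx3cr1, the receptor of patrolling monocytes, was lower in low Se GD by 1.47-fold (adjusted p = 0.0392) and differed by -0.02 in normal Se GD.

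**Figure D5:**
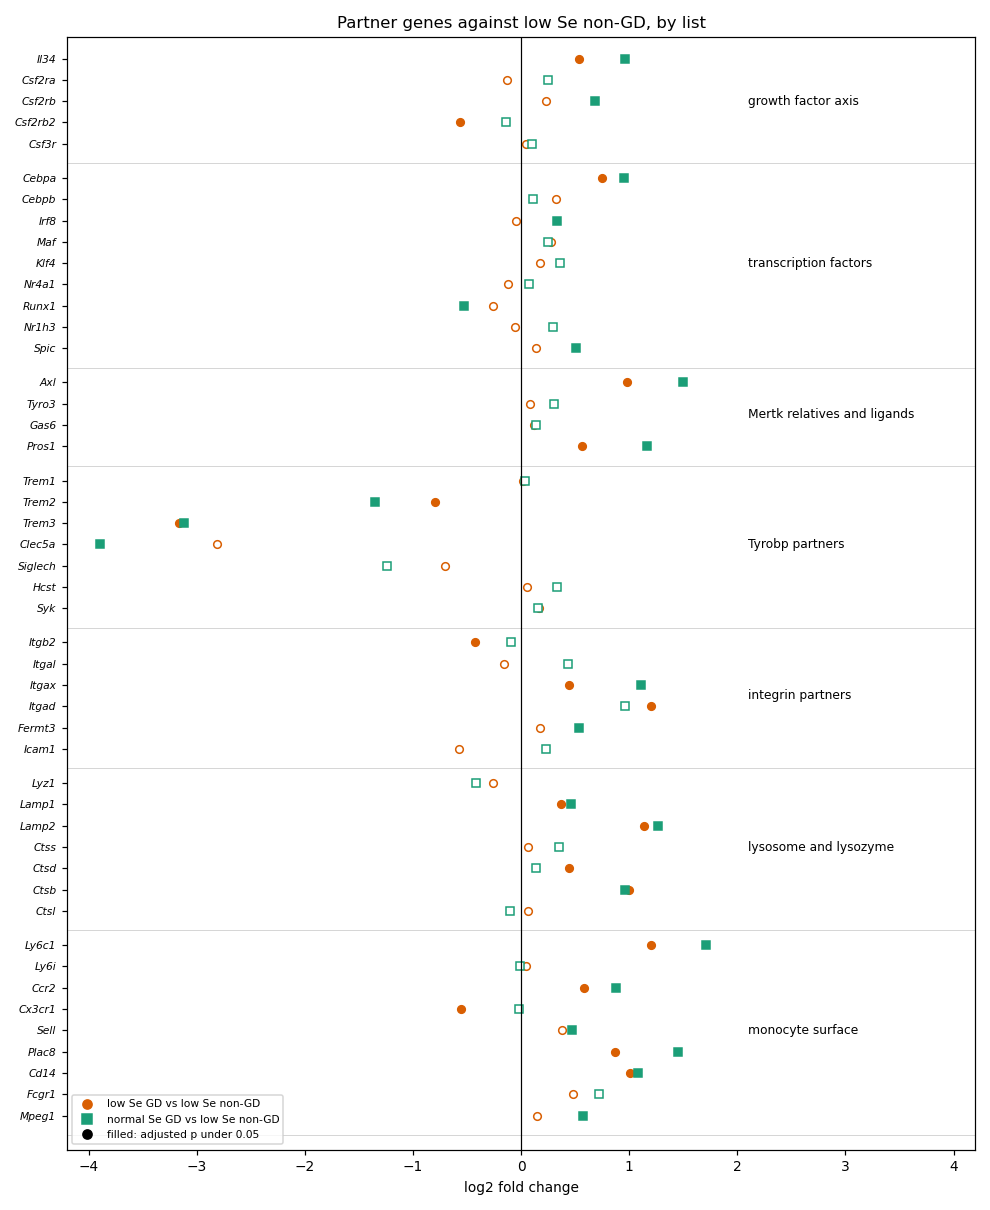
Log2 fold change (horizontal axis) of the partner genes reported in the disease comparison and in the combined comparison, by list; filled points have an adjusted p under 0.05. Axl, Pros1, Itgax, Lamp2, Ctsb, Ly6c1, Ccr2 and Cd14 are filled on the higher side in both, and Trem2 and Trem3 on the lower side.

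Some markers of other cell types were called too, and their part in the members' differences was not tested. Of all genes, 12.8% were higher and 12.2% lower in the disease comparison. In the supply comparison 1.27% were called, and in the combined one 18.9% were higher and 13.4% lower. Their summed level is given in multiples of the array's 75th percentile. Of 8 natural killer cell markers, 5 were higher in the disease comparison and 7 in the combined one, and their sum ran from 4.94 to 7.14 in low Se non-GD, 10.8 to 12.4 in low Se GD and 11.4 to 15.4 in normal Se GD. Of 10 dendritic cell markers, 5 and 6 were higher in these comparisons and 1, Fscn1, in the supply comparison, with sums of 14.0 to 19.3, 18.0 to 18.3 and 19.4 to 27.0. Natural killer cells and dendritic cells also use Tyrobp, and some of them carry Itgam and Itgax.

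The same shares over all genes stand beside the counts of the other markers. Of 11 neutrophil markers measured, 2 were higher and 1 lower in low Se GD, and 4 higher and 1 lower in normal Se GD, and the sums overlapped (144 to 188, 136 to 164 and 139 to 176). Of 9 B cell markers, 4 were lower in the disease comparison, 2 were higher in the supply comparison (Blk and Fcer2a), and 1 was higher and 2 lower in the combined one, with sums of 122 to 141, 93.1 to 98.4 and 110.3 to 120.2. Of 8 T cell markers, 0 were called by limma in any comparison, with sums of 25.6 to 41.7, 31.5 to 33.2 and 31.6 to 33.7. Of 7 fat tissue markers measured, 4 were higher in the disease comparison and 1, Adipoq, was lower in the supply comparison. In low Se GD the sum ran from 7.75 to 76.8, against 0.663 to 5.99 in low Se non-GD and 0.803 to 0.811 in normal Se GD. Lep was not well above background on any array, nor was Plin1 in the low Se non-GD group. Of 8 erythroid markers, 0 were called by limma, with sums of 99.8 to 207, 170 to 223 and 109.6 to 131. Of 8 stromal and endothelial markers, 1 was higher in the disease comparison and 4 in the combined one. Of 8 pancreas markers, 2 were lower in both, and 1 was higher in the combined one.

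The genes whose pattern over the 9 arrays was most like each member were taken from 13356 other named genes above background on all arrays. These correlations are across arrays on different slides, which ran in part with the groups, and they are given as a description. The nearest to Csf1r were Ppt2 and C1qa (Pearson's r of 0.998 and 0.997), C1qa being a chain of complement C1q. The nearest to Csf1 were Ctnna1 and Clic4 (0.996 and 0.989), to Adgre1 Pygm and Lysmd3 (0.997 and 0.997), and to Mertk Bicd1 and Ggta1 (0.995 and 0.987). Lyz2 had Rnft2 and Rab29 (0.984 and 0.971), Itgam had Zfp663 and Triobp (0.997 and 0.995), and Tyrobp had Kazn and Hsd11b1 (0.992 and 0.989). All 7 members had such a gene, and nothing is read from the coefficients.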

How the data were processed

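Total RNA of 9 spleen samples was hybridised to 1-colour Agilent arrays, per the labels' protocols. Per the file headers, the deposited intensity values are linear processed signals of Feature Extraction 11.0.1.1, background-subtracted and detrended, with no scaling between arrays. The authors' table of log2 values, of which the sources name no method, served only as an alternative. In low Se non-GD its 3 columns each fitted a different array of the group than the one labelled so, and replicate numbers there are uncertain. No spot was saturated, and the number of arrays limits the precision.

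Log2 processed signals were set against each array's 75th percentile over 43020 non-control spots. Spots marked as outliers were dropped and spots of a probe averaged. Accessions were named through a RefSeq table (GRCm38.p6), which named 27234 of 39429 probes. The brightest probe stood for a gene, and probes well above background on at least 3 of 9 arrays were tested. All 9 arrays entered 1 limma fit (limma 3.58.1, R 4.3.3; lmFit and eBayes) with 6 residual degrees of freedom, and p-values were adjusted by Benjamini-Hochberg over all genes, or over all probes for single probes. On simulated data for the disease comparison (the first) with 26325 genes, 50% of 2-fold and 77% of 4-fold changes were recovered. The simulation changed 100 genes at each of these sizes, while 6556 genes were called in the real comparison. The shares recovered therefore need not hold for the real data.

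Members and lists were chosen with earlier results of these data known. The text names all members with every probe, the called partner genes up to 15 per comparison by size of change, 14 partners named in any case, and for each member the 2 genes most like it. The values of 1 partner gene are not reported here, though it is in the counts. The alternatives were another background correction (normexp on the median signal, the column the files hold), scalings, filters, the authors' table, slide and replicate blocks, array weights (estimated gene by gene, as the default estimate did not converge), fits within slides or pairs of groups, and each array left out. Leaving out both in-between arrays was added after seeing the data.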

Additional observations from a re-analysis of the deposited data

How the results depend on the processing

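Each of the 3 comparisons was refitted under 23 or 24 alternatives, and no called difference of a member gene or probe changed direction. Counts of called member genes moved by over 1.5 times as follows. In the disease comparison the 3 calls became 6 with array weights, where 75.4% of all genes were called. They became 0 without the 2 in-between arrays, where 1.02% of all genes were called. With 1 array left out they ran from 1 to 4, and the share of all genes from 13.1% to 41%. The fit within slide 1 has 1 low Se GD array and is left out of these counts. In the supply comparison the 0 calls became 1 with the slide as a block, 1 with it as a random block, 1 within slide 2 and 4 with array weights. Of all genes, 6.51%, 7.37%, 10.6% and 41.1% were called in these settings. In the combined comparison the 4 calls became 1 with the slide as a block, as a random block, or without the in-between arrays. Of all genes, 18.3%, 22.7% and 11.6% were called in these settings. The calls became 7 with array weights, where 70% of all genes were called. Leaving out 1 array kept 4, with 20.6% to 43.8% of all genes called. There the median log2 difference was 0.22 and 0.35 with the 2 slide blocks, against 0.71.

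Called probes, 3, 0 and 7 in the 3 comparisons, became 12, 6 and 14 with array weights and 0, 0 and 2 without the in-between arrays. The shares beside these probe counts are over genes, not over probes. Of all genes, 75.4%, 41.1% and 70% were called with array weights, and 1.02%, 0% and 11.6% without those arrays. Called probes numbered 3 within slide 2 in the second comparison. They were 1 and 11 in the second and the last when only probes above background on all arrays were tested. Of all genes, 10.6% were called within slide 2, and 6.95% and 39.6% under that filter. With either slide block the called probes were 1 in the second and 2 in the last. Of all genes, 6.51% and 18.3% were then called with the slide as a block, and 7.37% and 22.7% as a random block. With 1 array left out the called probes ran from 1 to 6, stayed at 0, and ran from 5 to 8. The shares of all genes then ran from 13.1% to 41%, 0% to 4.09% and 20.6% to 43.8%.

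Same-numbered arrays deviated from their group means with correlations of -0.21 to 0.10. Between the GD groups, replicates 1 and 3 of normal Se GD went best with their own number (0.10 and 0.05), and replicate 2 did not. The replicate numbers of low Se non-GD are uncertain, so these values cannot tell whether samples were paired. With the replicate number as a block the called member genes numbered 3, 0 and 4, where 19.6%, 0% and 27.3% of all genes were called. Normexp background correction moved the median of all genes to -0.16 and 0.16 in the first 2 comparisons and the share of calls that were higher from 51.2% to 40.9% in the first. With 3 arrays a group, a difference that was not called may still be there. Differences under 2-fold were called too, such as that of Csf1r in the disease comparison (1.62-fold).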
